A study of Mus musculus with 18 samples.

Results

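The set described here holds 39 mouse genes that build, crosslink or break down the extracellular matrix, or that mark the cytoskeleton and the mesenchymal state, out of 16873 protein-coding genes measured. They were picked by gene name, and all 39 were found. Matrix and protease genes number 21, namely 2 crosslinking enzymes, 5 collagens, 7 matrix glycoproteins, 4 metalloproteinases and 3 metalloproteinase inhibitors. Cytoskeletal and transition genes number 14, namely 6 genes of actin and filament proteins, 3 S100 genes and 5 genes of transition factors and N-cadherin. The remaining 4 are 2 integrin alpha chains and 2 TGF-beta ligands.

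RNA was sequenced from hepatocytes of mice of matched age that carried no tumor and were either wild type (WT) or lacked Mtdh (knockout, KO). The 6 groups, of 3 libraries each, are KO and WT cells given conditioned medium (CM) from Kupffer cells, the macrophages of the liver, that had been treated with Py8119-EVPs (Py8119 is a mouse mammary tumour line), KO and WT cells given TGFb, and KO and WT cells given TNFa. No untreated cells are among these samples, so each treatment could be set only against another treatment. The labels call the libraries of a group biological replicates. Whether each came from its own mouse, the part of Mtdh that was removed and the cells in which it was removed, the doses, the hours of treatment and the sex and age of the mice are not stated in the labels.

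Mtdh RNA in KO hepatocytes was 6.79% of the WT mean with CM, 7.15% with TGFb and 5.61% with TNFa, so each label matched the gene. The 14 hepatocyte markers held 7.24% to 12.9% of all values in a library. The 19 Kupffer cell markers held 0.0165% to 0.052% and the 19 sinusoidal endothelial markers 0.015% to 0.0333%. Depth over the protein-coding genes was estimated at 19400000 to 35600000 reads per library (median 23400000). In such bulk samples, fewer cells of a type and less RNA per cell cannot be told apart.

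Hepatocytes make little fibrillar collagen. In the injured liver the scar is laid down mainly by stellate cells and portal fibroblasts, while hepatocytes secrete plasma fibronectin and line the space of Disse, where type IV collagen forms an open basement membrane. TGF-beta binds a pair of receptor kinases that phosphorylate SMAD proteins, and it is the best known inducer of matrix, of lysyl oxidases and of the loosening of epithelial cells towards a mesenchymal state. TNF acts largely through NF-kappaB and AP-1, which drive metalloproteinase genes.

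The members differed widely in level. As values divided by exon length, Itgav (2837 per kilobase, mean of 18 libraries), Ccn1 (2723), S100a11 (2678), Tagln2 (2347) and Fn1 (1790) stood highest, and Ccn2 (1444), S100a6 (750.3), Lox (659) and Vim (513) were among the next. The genes that define an activated myofibroblast were near 0. Col1a1, the main collagen of scar, was at 0 in 16 of 18 libraries with a highest value of 17.4. Acta2, smooth muscle actin, was at 0 in 13 libraries with a highest value of 7.55. Mmp2, gelatinase A of mesenchymal cells, was at 0 in 12 libraries with a highest value of 12.8. These 3 members did not pass the filter on low values, which asked for 3 or more libraries at 10 or above. Of the 36 that were tested, 10 had a mean value under 50. Markers of the other cells that make such genes were uneven. Of the stellate markers, Hand2 was at 0 in 15 libraries and Cygb in 14, and Lrat had a median of 11.5, while Reln (median 744), Ecm1 (347) and Dcn (329.5) were above 0 in every library. Of the portal fibroblast markers, Thy1 was at 0 in 11 libraries, while Gas6 (median 1088), Entpd2 (285), Cd34 (138) and Fbln2 (134) were above 0 in all. Of the smooth muscle markers, Myh11 was at 0 in 16 libraries and Smtn had a median of 125.

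**Figure D1:**
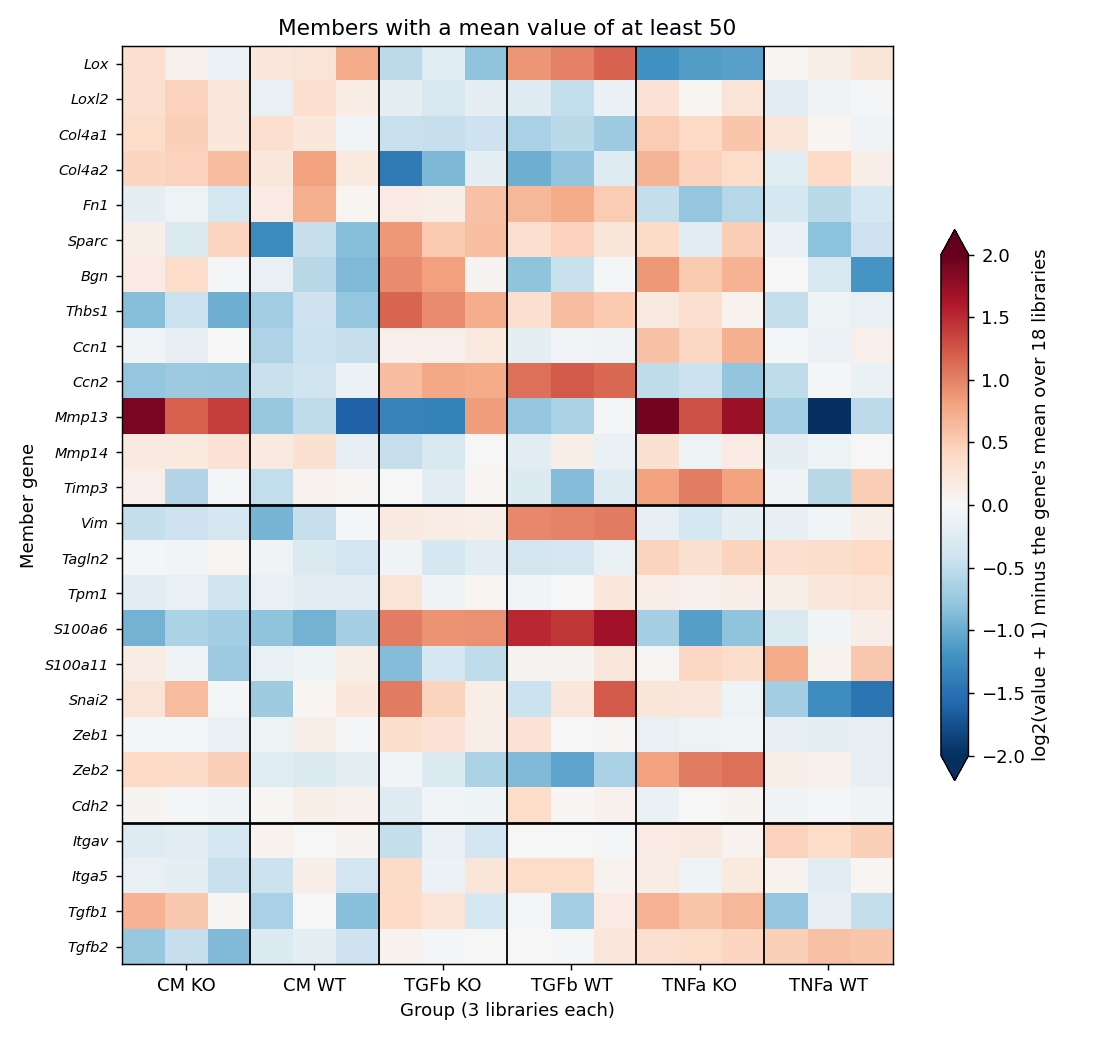
Heat map of the members with a mean value of at least 50. Columns are the 18 libraries by group and rows are genes, ordered by role, with lines between the matrix, cytoskeletal and receptor classes; colour gives log2(value + 1) minus the gene's mean over all libraries. S100a6, Ccn2 and Vim are highest in TGFb WT libraries, Mmp13 in KO libraries given CM or TNFa, and Zeb2 in TNFa KO libraries.

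Differences were tested with limma on log2(value + 1), with p-values adjusted over all 14455 genes tested and a call at an adjusted p below 0.05. Signed values beside a gene are log2 fold changes on that scale, first-named group over the second, with ± for the SE. For low genes the added 1 shrinks a change. Where some libraries are at 0, the log2 fold change can instead exceed the ratio of group means, as for Mmp9 and Tgfbi between TGFb and TNFa in WT cells. With CM, 8 of 36 members differed between KO and WT (22.2%), against 9.39% of all genes; 4 were higher, against 5.62%, and 4 lower, against 3.77%. With TGFb, 10 differed (27.8%), against 12.2% of all genes, with 3 higher, against 7.25%, and 7 lower, against 4.95%. With TNFa, 9 differed (25%), against 7.89%, with 5 higher, against 4.19%, and 4 lower, against 3.70%. Averaged over the 3 treatments, 15 differed (41.7%), against 20.7%, with 8 higher, against 11.2%, and 7 lower, against 9.53%. The members had no shared direction. Their median log2 fold change was -0.038 with CM, -0.073 with TGFb and 0.26 with TNFa, where the medians of all genes were -0.0098, -0.011 and 0.017. By class, matrix and protease genes gave 6 higher and 3 lower of 19 in the average over treatments, and cytoskeletal and transition genes 1 higher and 3 lower of 13. With library totals made equal, the split was 1 higher and 8 lower with TGFb, and 6 higher and 3 lower with TNFa.

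**Figure D2:**
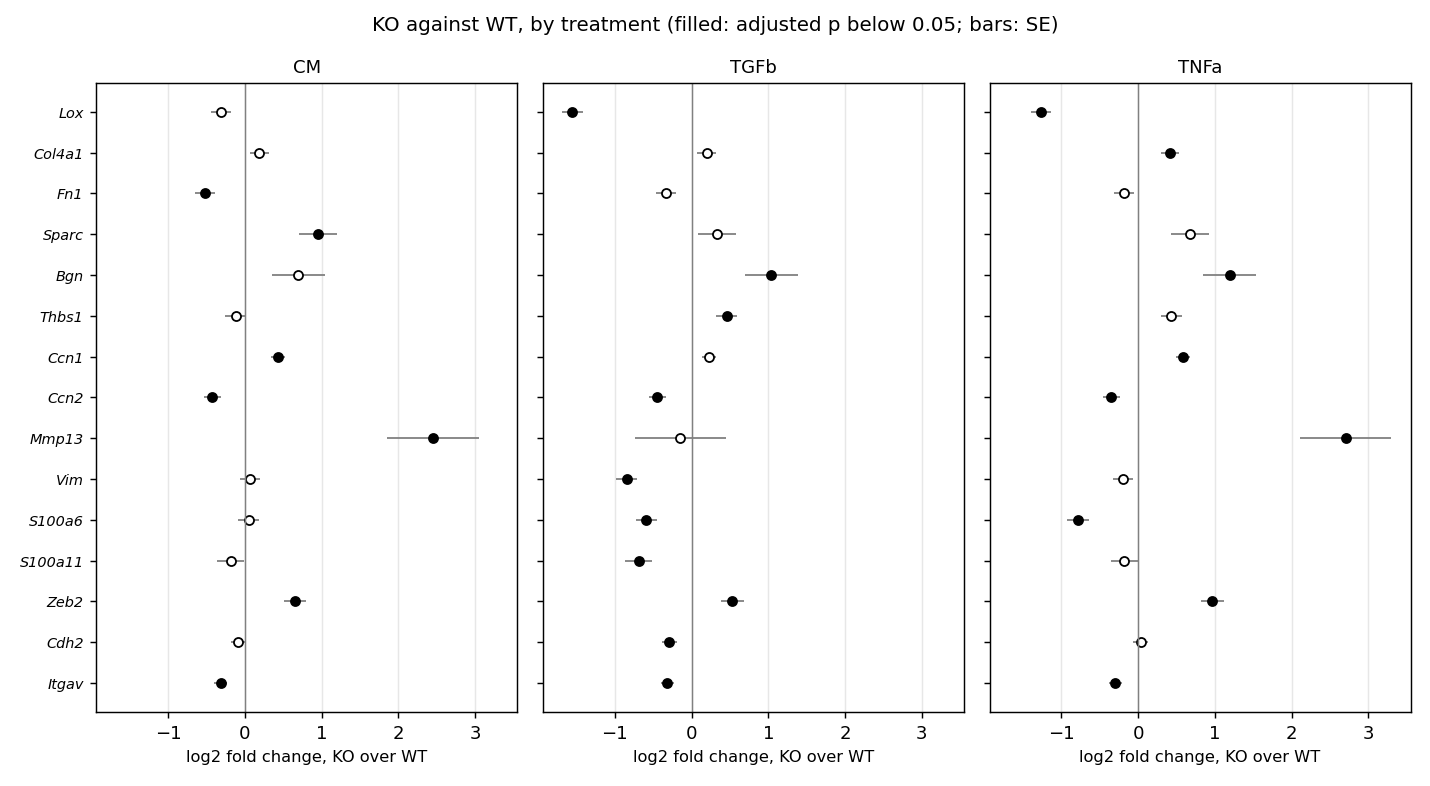
Log2 fold change of KO over WT within each treatment, for the 15 members with a mean value of at least 50 that were called in at least 1 treatment; Cnn2, called with CM, has a lower mean and is not drawn. Points are estimates, bars are standard errors and filled points have an adjusted p below 0.05. Lox lies far below 0 with TGFb and TNFa and nearer 0 with CM, while Mmp13 lies far above 0 with CM and TNFa and near 0 with TGFb.

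Treatments were compared within each genotype. Each share of members stands here against that of all genes in the same direction. Between TGFb and TNFa, 18 of 36 members differed in KO cells (50%), against 22.4% of all genes, with 7 higher with TGFb, against 12.3%, and 11 lower, against 10.1%. In WT cells 15 differed (41.7%), against 13.4%, with 9 higher, against 8.06%, and 6 lower, against 5.33%. Between CM and TGFb, 15 differed in KO cells, against 10.6%, with 7 higher with CM, against 5.20%, and 8 lower, against 5.39%. In WT cells 12 differed, against 11.8%, with 4 higher, against 5.76%, and 8 lower, against 6.09%. Between CM and TNFa, 11 differed in KO cells, against 12.7%, with 2 higher with CM, against 8.38%, and 9 lower, against 4.32%. In WT cells 8 differed, against 12.3%, with 1 higher, against 6.81%, and 7 lower, against 5.46%. These comparisons share groups: the TGFb libraries of a genotype enter the first 2 and the TNFa libraries the first and the last. Equal library totals shifted the median of all genes to -0.290 between TGFb and TNFa in KO cells, -0.109 in WT cells, -0.174 between CM and TNFa in KO cells and 0.103 between CM and TGFb in KO cells. The splits in KO cells then became 5 higher and 14 lower, 1 higher and 12 lower, and 8 higher and 6 lower, in that order of comparisons.

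**Figure D3:**
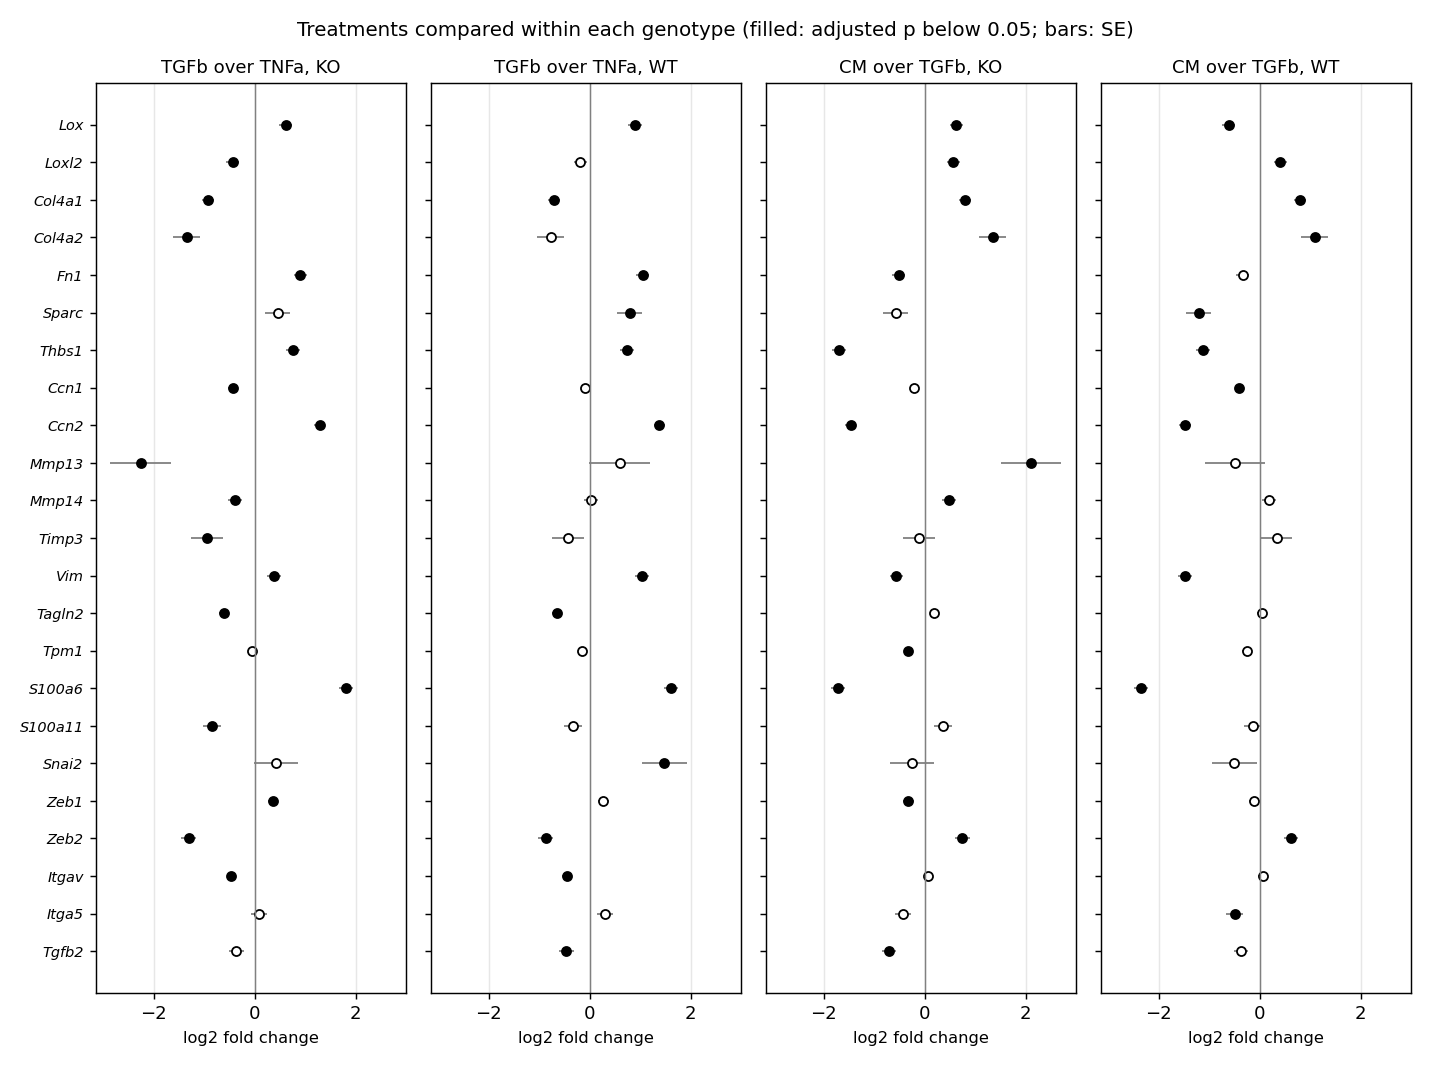
Log2 fold change between treatments within KO and within WT cells, for members called in at least 1 of these 4 comparisons and with a mean value of at least 50; points, bars and filling as in the plot of KO effects. S100a6, Ccn2, Thbs1 and Fn1 are higher with TGFb than with TNFa in both genotypes, and Col4a1 and Zeb2 lower; Lox is lower with CM than with TGFb in WT cells and higher in KO cells.

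Lox, the lysyl oxidase that oxidises lysines of collagen and elastin so that fibres crosslink, differed most clearly between the genotypes. With TGFb it had 1945, 2371 and 1606 in KO libraries, against 5189.8, 5668 and 6366 in WT libraries. With TNFa it had 1219, 1291 and 1320.0 in KO libraries, against 2855, 3051 and 3321 in WT libraries. Every KO library lay below every WT library in both treatments. The log2 fold change of KO over WT was -1.55 ± 0.13 with TGFb (SE, adjusted p = 6.07e-10) and -1.27 ± 0.13 with TNFa (adjusted p = 8.49e-08). With CM the groups overlapped, at 3553, 2988 and 2580.4 in KO libraries, against 3288, 3355 and 4724 in WT libraries (log2 fold change -0.31, SE 0.13, adjusted p = 0.166). The KO difference with CM was smaller than that with TGFb by 1.24 on the log2 scale (SE 0.19, adjusted p = 0.00143) and than that with TNFa by 0.96 (SE 0.19, adjusted p = 0.0134). The second of these differences was lost without any one of CM KO library 1, TNFa WT library 3 (adjusted p 0.0514 to 0.0568).

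The order of treatments for Lox differed between the genotypes. In KO cells the mean was 3040.3 ± 488 with CM, 1974 ± 384 with TGFb and 1277 ± 51.7 with TNFa (SD, n = 3 each), and all 3 pairs differed. In WT cells it was 3789 ± 811 with CM, 5742 ± 592 with TGFb and 3076 ± 234 with TNFa. TGFb stood highest there, by 0.90 over TNFa on the log2 scale (adjusted p = 1.01e-05), and CM was lower than TGFb by 0.62 (adjusted p = 0.00188). CM and TNFa were not told apart in WT cells (log2 fold change 0.28, SE 0.13, adjusted p = 0.185).

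Loxl2, a second lysyl oxidase that also acts on basement membrane collagen, had 1346, 1132 and 1322 in TNFa KO libraries, against 943, 1047 and 1084 in TNFa WT libraries. The groups did not overlap, but no comparison of KO with WT passed the test (adjusted p = 0.343 with CM, 0.856 with TGFb and 0.16 with TNFa). It was higher with CM than with TGFb in KO cells (log2 fold change 0.57, SE 0.13, adjusted p = 0.00295). Of 16 further genes that modify or crosslink collagen, 6 differed in the average over treatments (37.5%, against 20.7% of all genes), 1 higher and 5 lower in KO. Their median log2 fold change was -0.056, against -0.0033 over all genes. Loxl4, another lysyl oxidase, was lower in KO with each treatment (-0.36 ± 0.10 with CM, -0.46 ± 0.10 with TGFb and -0.45 ± 0.10 with TNFa). Tgm2, a transglutaminase that crosslinks matrix proteins through glutamines, was lower with TGFb (-0.71, adjusted p = 3.56e-06) and with TNFa (-0.54, adjusted p = 4.40e-04).

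**Figure D4:**
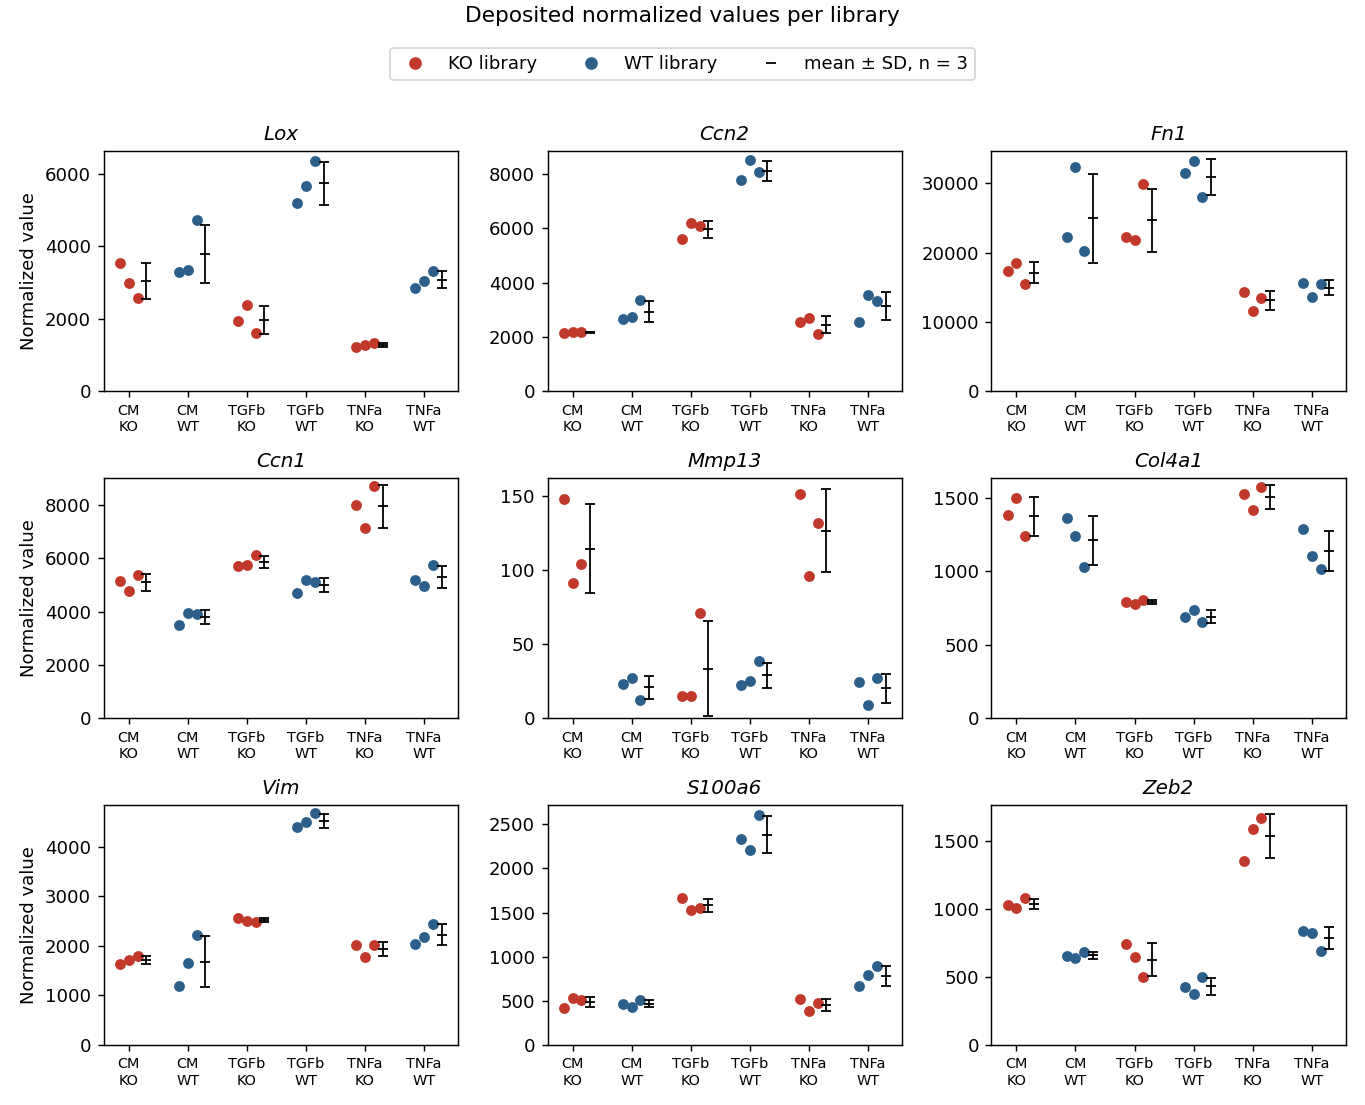
Deposited normalized values of 9 members, one panel a gene with its own axis from 0. Each point is a library, grouped by treatment with KO left of WT, and bars show the mean and SD of 3 libraries. Lox, S100a6 and Vim are highest in TGFb WT libraries, where no KO library reaches them, and the CM and TNFa KO libraries hold the 6 highest values of Mmp13.

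The collagens split by type. Col4a1 and Col4a2 encode the chains of type IV collagen, which forms networks and no fibres, and both were measured well above the filter. The fibrillar chains Col1a2 and Col5a2 had highest values of 26.6 and 37.0, and neither was called in any comparison. Col4a1 and Col4a2 are a head-to-head pair on chromosome 8 (mm39, starts at 11362827 on the minus strand and 11362805 on the plus strand), and the annotated genes overlap there by a short stretch, so that reads from it could be counted for either. In RefSeq (GRCm38.p6) their starts lie 21 bases apart. Their promoter windows, 250 bases before to 50 after each start, are shown because both genes were lowest with TGFb. Capitals mark the 78 bases that the windows share, each written on its own gene's strand.
Col4a1, chr8:11312777-11313076, minus strand: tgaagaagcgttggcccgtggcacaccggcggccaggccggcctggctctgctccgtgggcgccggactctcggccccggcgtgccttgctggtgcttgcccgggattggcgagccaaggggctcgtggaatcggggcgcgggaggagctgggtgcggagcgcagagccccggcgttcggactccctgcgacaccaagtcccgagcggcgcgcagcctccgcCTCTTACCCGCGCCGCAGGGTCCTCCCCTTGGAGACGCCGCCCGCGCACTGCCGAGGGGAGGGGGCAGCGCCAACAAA
Col4a2, chr8:11312555-11312854, plus strand: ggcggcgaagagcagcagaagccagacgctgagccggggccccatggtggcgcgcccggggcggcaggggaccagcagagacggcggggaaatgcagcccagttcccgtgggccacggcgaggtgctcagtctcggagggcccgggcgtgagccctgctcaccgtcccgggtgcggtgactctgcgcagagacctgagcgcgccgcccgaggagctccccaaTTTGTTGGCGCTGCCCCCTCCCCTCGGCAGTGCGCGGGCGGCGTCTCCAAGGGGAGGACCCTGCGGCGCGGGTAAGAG

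Both chains were lowest with TGFb. In KO cells Col4a1 had 1385, 1499.5 and 1236 with CM, 789, 778 and 804 with TGFb and 1527, 1417 and 1575 with TNFa. In WT cells it had 1358, 1239.9 and 1029 with CM, 686, 736 and 650.4 with TGFb and 1284, 1103 and 1016 with TNFa. The TGFb libraries of a genotype lay below all its other libraries. TGFb over TNFa gave -0.93 (adjusted p = 6.11e-07) in KO cells and -0.71 (adjusted p = 7.84e-05) in WT cells on the log2 scale. Col4a2, at lower values, had 345, 354 and 395 with CM, 95.6, 137 and 223 with TGFb and 412, 354 and 330.2 with TNFa in KO cells, and TGFb over TNFa gave -1.34 (adjusted p = 3.06e-04). In WT cells the same comparison gave -0.77 ± 0.27 and did not pass (adjusted p = 0.0549). CM over TGFb was positive for both chains in both genotypes, with 0.79 and 1.34 in KO cells and 0.80 and 1.09 in WT cells for Col4a1 and Col4a2, all called, that of Col4a2 in WT cells not without CM WT library 2 (adjusted p = 0.0568). KO over WT was called for Col4a1 with TNFa alone (log2 fold change 0.41, SE 0.12, adjusted p = 0.0316), a call lost without any one of TNFa KO libraries 1 and 3, TNFa WT libraries 2 and 3 (adjusted p 0.09 to 0.172). In the average over treatments it was 0.27 ± 0.07 (adjusted p = 0.00598). KO and WT were not told apart for Col4a2.

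Of 26 further matrix genes, 10 differed between KO and WT in the average over treatments, 4 higher and 6 lower in KO (38.5% in all, against 20.7% of all genes, median 0.20). Of these, 2 basement membrane genes were lower in KO with every treatment. Nid1, which links the laminin and collagen networks, gave -0.61 ± 0.091 with CM, -0.71 ± 0.091 with TGFb and -0.34 ± 0.091 with TNFa, and Agrn, a heparan sulfate proteoglycan, gave -0.92 ± 0.13, -0.55 ± 0.13 and -0.62 ± 0.13 in the same order. Nid1 was also lower with TGFb than with TNFa, at a log2 fold change of -1.58 in KO cells and -1.22 in WT cells. Col27a1 and Fbln2, a fibrillar collagen and an elastic fibre protein, were higher with TGFb than with TNFa in KO cells (2.01 and 1.36) and in WT cells (2.10 and 2.85).

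Fibronectin (Fn1), the adhesive glycoprotein that hepatocytes also release to plasma, had 17301, 18458 and 15462 in CM KO libraries, against 22180.0, 32287 and 20285 in CM WT libraries. The groups did not overlap and KO was lower (log2 fold change -0.52, SE 0.13, adjusted p = 0.00846). The call was lost without any one of CM KO library 3, CM WT library 2 (adjusted p 0.0613 to 0.105); without WT library 2, the highest, the log2 fold change was -0.32. In the average over treatments Fn1 was lower in KO (-0.35, adjusted p = 8.12e-04). Both genotypes had more Fn1 with TGFb than with TNFa, at 22222, 21777 and 29878 with TGFb, against 14302, 11595 and 13390.0 with TNFa in KO cells (log2 fold change 0.90, SE 0.13, adjusted p = 3.02e-06) and 31418, 33201 and 28068 with TGFb, against 15615, 13649 and 15501 with TNFa in WT cells (log2 fold change 1.05, SE 0.13, adjusted p = 5.81e-07). No TGFb library overlapped a TNFa library of its genotype.

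Ccn1 and Ccn2, also called Cyr61 and Ctgf, are short-lived secreted proteins of one family that bind integrins, and both are textbook targets of YAP with TEAD factors; Ccn2 is a SMAD target as well. They moved in opposite directions. Ccn1 had 5138, 4757 and 5384 in CM KO libraries, against 3477, 3962 and 3901 in CM WT libraries, and 7998, 7136 and 8732 in TNFa KO libraries, against 5185, 4959 and 5756 in TNFa WT libraries. With TGFb it had 5721, 5764 and 6106 in KO libraries, against 4701, 5173 and 5126 in WT libraries. KO libraries were above WT libraries in all 3 treatments, and the difference was called with CM (log2 fold change 0.43, SE 0.089, adjusted p = 0.0014) and with TNFa (log2 fold change 0.58, SE 0.089, adjusted p = 3.84e-05) and missed the threshold with TGFb (log2 fold change 0.23, SE 0.089, adjusted p = 0.0961). The Ccn1 promoter is shown because one TEAD motif lies in it. Capitals mark CATTCC, the reverse complement of GGAATG, with its first base at -103 from the start.
Ccn1, chr3:145649936-145650235, minus strand, GRCm38.p6: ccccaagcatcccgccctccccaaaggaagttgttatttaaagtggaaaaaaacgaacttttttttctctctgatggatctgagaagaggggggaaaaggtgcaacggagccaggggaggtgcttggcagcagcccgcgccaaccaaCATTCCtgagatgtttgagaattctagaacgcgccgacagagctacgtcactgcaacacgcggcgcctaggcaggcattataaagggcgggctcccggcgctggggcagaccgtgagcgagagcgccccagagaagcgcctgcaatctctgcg

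Ccn2 was lower in KO cells. It had 2135, 2196 and 2173 in CM KO libraries, against 2671, 2746 and 3369.7 in CM WT libraries, 5609, 6192 and 6103 in TGFb KO libraries, against 7780.1, 8517 and 8056 in TGFb WT libraries, and 2561, 2702 and 2096 in TNFa KO libraries, against 2555, 3550.3 and 3328 in TNFa WT libraries. The genotypes separated with CM and TGFb and overlapped with TNFa. KO over WT was -0.43 (adjusted p = 0.0112) with CM, -0.44 (adjusted p = 0.00613) with TGFb and -0.35 (adjusted p = 0.0459) with TNFa. The CM call was lost without CM WT library 3 (adjusted p = 0.0809), and the TNFa call without any one of CM KO libraries 1, 2 and 3, TGFb KO library 3, TGFb WT libraries 1, 2 and 3, TNFa KO libraries 1 and 3, TNFa WT libraries 2 and 3 (adjusted p 0.0503 to 0.248), under no filter on low values (adjusted p = 0.068), under quantile normalization (adjusted p = 0.0874), under equal library totals (adjusted p = 0.0787) and under a fit of only the groups compared (adjusted p = 0.0793). TGFb over TNFa was 1.29 ± 0.11 in KO cells and 1.38 ± 0.11 in WT cells, both called. Of 14 other YAP and TEAD genes, 4 were higher and 2 lower in KO in the average over treatments (42.9% in all, against 20.7% of all genes, median 0.07). Axl, a receptor kinase, and Amotl1, a YAP-binding scaffold, were among the higher ones (1.18, adjusted p = 7.64e-06 and 0.74, adjusted p = 2.16e-06). Axl is also a macrophage gene.

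Sparc, Bgn and Thbs1 were higher in KO cells in the average over treatments. Sparc, a collagen-binding glycoprotein of many stromal cells, had 307, 228 and 376 in CM KO libraries, against 114, 202 and 154 in CM WT libraries (log2 fold change 0.96, SE 0.25, adjusted p = 0.0107), a call lost without any one of CM KO library 3, CM WT library 1 (adjusted p 0.0847 to 0.0872). Bgn, the small proteoglycan biglycan, had 252, 231 and 134 in TGFb KO libraries, against 73.5, 95.4 and 126 in TGFb WT libraries, and 237, 186 and 211 in TNFa KO libraries, against 130.1, 103 and 56.7 in TNFa WT libraries. KO libraries lay above WT libraries in each of these pairs. Bgn gave 1.04 (adjusted p = 0.0432) with TGFb and 1.19 (adjusted p = 0.027) with TNFa, and 0.98 (adjusted p = 4.14e-04) in the average. The TGFb call was lost without any one of CM KO libraries 1 and 2, TGFb KO libraries 1 and 2, TGFb WT libraries 1 and 2, TNFa KO library 1 (adjusted p 0.0502 to 0.187), under no filter on low values (adjusted p = 0.0616), under quantile normalization (adjusted p = 0.0688) and under equal library totals (adjusted p = 0.0628), and the TNFa call without any one of TNFa KO libraries 1 and 3, TNFa WT library 3 (adjusted p 0.0678 to 0.193) and under quantile normalization (adjusted p = 0.0546). The average kept its call under each alternative that tested it and without each library, as did that of Sparc (0.65, adjusted p = 0.00101).

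Thbs1, thrombospondin 1, which can release TGF-beta from its latent complex, had 3012, 2584 and 2221 in TGFb KO libraries, against 1669, 2063 and 1939.9 in TGFb WT libraries. The groups did not overlap (log2 fold change 0.46, SE 0.14, adjusted p = 0.0302), yet the call was lost without any one of TGFb KO libraries 1 and 2, TGFb WT libraries 1 and 3 (adjusted p 0.0617 to 0.193) and under equal library totals (adjusted p = 0.0924). In the average over treatments it was 0.26 (adjusted p = 0.0232), a call lost without any one of CM KO library 2, TGFb KO library 1, TGFb WT library 1, TNFa WT library 1 (adjusted p 0.0609 to 0.0726) and under equal library totals (adjusted p = 0.0676). Treatment differences were larger. KO cells had 745, 997 and 684 with CM, and CM over TGFb was -1.69 (adjusted p = 5.86e-10) there and -1.12 (adjusted p = 1.28e-06) in WT cells. Tgfbi, a secreted target of TGF-beta, reached 77.8 at most. Its TGFb over TNFa difference in WT cells (log2 fold change 2.71, SE 0.88, adjusted p = 0.0371) rested on values of 20.4, 33.4 and 21.2 with TGFb, against 1.51, 22.1 and 0 with TNFa, which overlap. The call was lost without any one of TGFb WT libraries 1, 2 and 3, TNFa WT libraries 1 and 3 (adjusted p 0.0726 to 0.258), under a pseudocount of 5 (adjusted p = 0.0722), under no filter on low values (adjusted p = 0.0539) and under a fit of only the groups compared (adjusted p = 0.161), and the log2 fold change was 1.73 without TNFa WT library 3 and 1.62 with a pseudocount of 5.

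Mmp13, interstitial collagenase of rodents, gave the largest called KO difference of the matrix and protease members, at low values. With CM it had 148, 90.8 and 104 in KO libraries, against 22.7, 27.3 and 12.1 in WT libraries. With TNFa it had 151, 95.8 and 132 in KO libraries, against 24.2, 9.11 and 26.8 in WT libraries. All KO libraries were well above all WT libraries, with log2 fold changes of 2.45 ± 0.60 (adjusted p = 0.00647) with CM and 2.702 ± 0.60 (adjusted p = 0.00341) with TNFa. With TGFb the genotypes overlapped, at 14.9, 14.7 and 70.6 in KO libraries, against 22.5, 25.04 and 38.6 in WT libraries, where KO library 3 stood apart from its group (log2 fold change -0.15, SE 0.60, adjusted p = 0.924). Neither difference of the KO effects passed its test (adjusted p = 0.195 for CM minus TGFb and 0.0958 for TGFb minus TNFa). Within KO cells Mmp13 was lower with TGFb than with TNFa (log2 fold change -2.26, SE 0.60, adjusted p = 0.00543). CM over TGFb in KO cells was 2.11 (adjusted p = 0.0192), a call lost without any one of CM KO libraries 1 and 3, TGFb KO libraries 1 and 2 (adjusted p 0.0514 to 0.105). The promoter is shown because it holds an AP-1 motif (TGANTCA), in capitals, with its first base at -35 from the start.
Mmp13, chr9:7272264-7272563, plus strand, GRCm38.p6: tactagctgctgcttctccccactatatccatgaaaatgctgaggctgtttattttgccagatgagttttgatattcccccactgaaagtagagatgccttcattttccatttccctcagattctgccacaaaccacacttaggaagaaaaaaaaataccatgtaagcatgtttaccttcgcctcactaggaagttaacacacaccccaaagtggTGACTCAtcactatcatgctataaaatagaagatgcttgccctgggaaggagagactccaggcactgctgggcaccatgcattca

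Motifs were searched on both strands in 29 RefSeq windows of 26 of the 39 members. Member windows on chromosome 18 were left out, so Lox, Zeb1 and Cdh2 were not searched. That limit was not set for the windows of all genes. Loxl2, Col1a1, Col5a2, Fn1, Thbs1, Ccn2, Mmp2, Mmp9, Tagln and Snai2 had no matched window and were not searched either. AP-1 (TGANTCA) was in 3 member windows, those of Mmp13, S100a11 and 1 of 4 for Zeb2, and in 7.81% of 32851 windows of all genes. TEAD (GGAATG) was in 6 and in 14.7% of all. NF-kappaB (GGGNNTTCC) was in 3 member windows, of Vim and Zeb2 only, and in 5.82% of all. The Zeb2 windows with it overlap, so 1 site may be counted more than once. CArG boxes were in 1 member window and in 1.63% of all. The SMAD palindrome GTCTAGAC was in none of the member windows searched, and in 0.213% of all windows. CAGACA, a shorter SMAD motif, was in 4 member windows, those of Sparc, Tgfb2, Col1a2 and Acta2, and in 6913 of the 32851. A match in these letters describes the window only.

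The remaining proteases and inhibitors were not called between KO and WT within a treatment. Mmp14, the membrane-bound enzyme that activates proMMP2, ranged from 885 to 1511 and was not told apart between genotypes (adjusted p = 0.684 with CM, 0.466 with TGFb and 0.382 with TNFa). In KO cells it was lower with TGFb than with TNFa (-0.38, adjusted p = 0.0398), lost without any one of TGFb KO libraries 1 and 2, TNFa KO libraries 1 and 3 (adjusted p 0.0984 to 0.207), under no filter on low values (adjusted p = 0.052), under the replicate number as a block (adjusted p = 0.0503) and under a fit of only the groups compared (adjusted p = 0.0655). Under equal library totals it was -0.64 and called. Timp3, the matrix-bound inhibitor, had 257, 301 and 258 in TNFa KO libraries, against 140.3, 99.9 and 208 in TNFa WT libraries, without overlap, and just missed the threshold (log2 fold change 0.92, SE 0.31, adjusted p = 0.0638). Within KO cells it was lower with CM than with TNFa (-1.05, adjusted p = 0.0198), lost without any one of CM KO library 2, TNFa KO library 2 (adjusted p 0.0793 to 0.126), and lower with TGFb than with TNFa (-0.94, adjusted p = 0.0256), lost without any one of TGFb KO libraries 1 and 2, TNFa KO libraries 1, 2 and 3 (adjusted p 0.0502 to 0.09). Mmp9, gelatinase B, reached 41.8 at most, Timp1 36.2 and Timp2 23.5. Mmp9 was lower with TGFb than with TNFa in WT cells (-3.44, adjusted p = 0.0291), at 21.4, 0 and 0 with TGFb, against 40.1, 41.8 and 15.3 with TNFa, which overlap; the call was lost without any one of TGFb WT libraries 2 and 3, TNFa WT libraries 1 and 2 (adjusted p 0.0996 to 0.156) and under a fit of only the groups compared (adjusted p = 0.0882). Timp1 and Timp2 were called in no comparison.

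Of 16 other proteases and inhibitors, 3 were higher and 2 lower in KO in the average over treatments (31.2% in all, against 20.7% of all genes, median 0.13). Mmp12, the macrophage metalloelastase, was higher in KO with each treatment (0.96 ± 0.26 with CM, 1.61 ± 0.26 with TGFb and 1.86 ± 0.26 with TNFa). Plau, the urokinase that activates plasminogen, was higher too (1.18 ± 0.36, 1.52 ± 0.36 and 2.47 ± 0.36 in the same order).

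Markers of other liver cells also differed between the genotypes. The summed value of the 19 Kupffer markers was 7821 to 8190.0 in CM KO libraries, against 4225 to 4845 in CM WT libraries, 6689 to 7796 in TGFb KO libraries, against 3993 to 4575 in TGFb WT libraries, and 10490.0 to 11390.0 in TNFa KO libraries, against 5223 to 6320.0 in TNFa WT libraries. Of these markers 11 were called higher in KO with CM, 11 with TGFb, 13 with TNFa and 17 in the average (89.5%, against 20.7% of all genes), with none lower. Clec4f and Adgre1, which define Kupffer cells, were above 0 in every library (medians 108 and 431), and Timd4 was at 0 in 4 libraries, Cd163 in 2, and Tyrobp and Folr2 in 1 each. The 19 sinusoidal endothelial markers summed to 5253 to 5479 in CM KO, against 3507 to 4361 in CM WT libraries, 5723 to 7014 in TGFb KO, against 4145 to 4510.0 in TGFb WT libraries, and 6843 to 7255 in TNFa KO, against 3814 to 4240.0 in TNFa WT libraries, with 1, 4 and 7 called higher and Clec4g and Kdr at 0 in 1 library each. Sparc, Bgn, Ccn1, Col4a1, Mmp13, Mmp12, Plau, Axl, Zeb2 and Tgfb1 were higher in KO in the average over treatments, though not all with each treatment. The genotypes overlapped for Mmp13 and Tgfb1 with TGFb, for Col4a1 with CM and for Sparc with TNFa. The part of Kupffer and endothelial cells in the results for these genes was not tested. Kupffer markers differed between treatments too. For TGFb over TNFa in WT cells, 1 was higher and 6 were lower (36.8%, against 13.4% of all genes). In KO cells none was higher and 5 were lower (26.3%, against 22.4%). Their part in treatment differences of members, such as that of Zeb2, was not tested either.

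**Figure D5:**
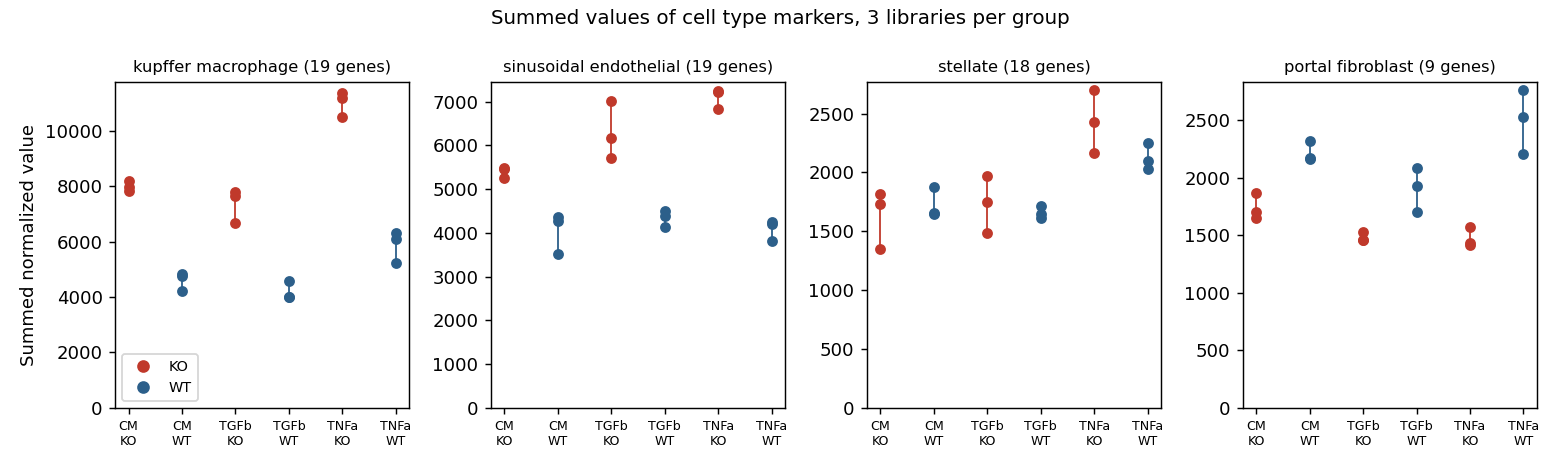
Summed normalized values of the markers of 4 other liver cell types in each library, KO left of WT within a treatment, axes from 0. Kupffer and sinusoidal endothelial sums are higher in every KO library than in the WT libraries of the same treatment, portal fibroblast sums are lower, and stellate sums overlap with CM, TGFb and TNFa.

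Of 12 stellate markers tested, 2 were higher and 1 lower in KO in the average over treatments (25%, against 20.7% of all genes). The 18 genes on the list summed to 1351 to 1819 in CM KO libraries, against 1647 to 1875 in CM WT libraries, 1481 to 1973 in TGFb KO libraries, against 1610.0 to 1711 in TGFb WT libraries, and 2164 to 2698 in TNFa KO libraries, against 2028 to 2250.0 in TNFa WT libraries. Dcn was the one higher in KO with CM (0.92, adjusted p = 0.0152) and with TGFb (1.03, adjusted p = 0.00461). The 9 portal fibroblast markers were lower in sum in KO, and Gas6, which other liver cells make too, had the highest value among them and was called lower with each treatment (-0.60 with CM, -0.86 with TGFb and -1.15 with TNFa). It was the only one of 6 tested that was called in the average, where the median of the 6 was 0.30, and with TNFa Fbln2 was called higher (1.16, adjusted p = 0.024). Of the other lists, 9 cholangiocyte markers gave 4 lower and none higher in the average over treatments (44.4%, against 20.7% of all genes), among them Spp1 (-0.97, adjusted p = 1.75e-05), while 3 tested lymphocyte markers and 1 of smooth muscle did not pass between KO and WT. Of the 14 hepatocyte markers, 10 were higher and 2 lower in KO in the average (85.7%, against 20.7% of all genes). With CM 9 were higher and none lower (64.3%, against 9.39%), and with TGFb 11 and none (78.6%, against 12.2%). With TNFa 7 were higher and 2 lower (64.3%, against 7.89%). There their share of all values overlapped, at 7.24% to 7.73% in KO and 7.39% to 7.5% in WT libraries. All 14 were higher with TGFb than with TNFa in KO cells, against 12.3% of all genes, and 11 in WT cells, against 8.06%.

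Vimentin (Vim), the intermediate filament of mesenchymal cells, had 2566, 2502 and 2481 in TGFb KO libraries, against 4406, 4495 and 4675 in TGFb WT libraries. The groups did not overlap (log2 fold change -0.85, SE 0.13, adjusted p = 2.60e-05). With CM it had 1625, 1707 and 1793 in KO libraries, against 1187, 1646 and 2213 in WT libraries, which overlap (log2 fold change 0.067, SE 0.13, adjusted p = 0.838), and with TNFa 2025, 1772 and 2009 in KO libraries, against 2026, 2183 and 2445 in WT libraries (log2 fold change -0.20, SE 0.13, adjusted p = 0.445). The TNFa groups were separated only narrowly, and neither difference passed. The KO difference with CM exceeded that with TGFb by 0.91 (SE 0.19, adjusted p = 0.0228), a call lost without any one of CM KO libraries 2 and 3, CM WT library 1, TGFb KO library 3, TGFb WT libraries 1, 2 and 3 (adjusted p 0.0504 to 0.0803). In WT cells Vim was higher with TGFb than with TNFa (log2 fold change 1.03, SE 0.13, adjusted p = 1.10e-06). In KO cells that difference was 0.38 ± 0.13 (adjusted p = 0.0371) and was lost without any one of TGFb KO libraries 1, 2 and 3, TNFa KO libraries 1, 2 and 3 (adjusted p 0.0534 to 0.141), under no filter on low values (adjusted p = 0.0589), under quantile normalization (adjusted p = 0.0787) and under equal library totals (adjusted p = 0.512). Equal library totals lowered that log2 fold change to 0.12.

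The S100 genes encode small calcium-binding proteins that are abundant in many migrating cells. S100a6 gave the largest treatment difference among members with a mean of at least 50. In WT cells it had 2329, 2205 and 2611 with TGFb, against 668, 789.5 and 895 with TNFa (log2 fold change 1.61, SE 0.14, adjusted p = 1.04e-09), and in KO cells 1669, 1523 and 1548 with TGFb, against 517, 381 and 469 with TNFa (log2 fold change 1.80, SE 0.14, adjusted p = 4.21e-11). CM libraries were the lowest of the WT cells, at 467, 423 and 513, and CM over TGFb was -2.35 ± 0.14 there. KO libraries lay below WT libraries with TGFb (log2 fold change -0.59, SE 0.14, adjusted p = 0.00419) and with TNFa (log2 fold change -0.78, SE 0.14, adjusted p = 3.60e-04). With CM they overlapped, at 422, 527 and 504 in KO libraries (log2 fold change 0.047, SE 0.14, adjusted p = 0.902), and the KO effects with CM and TNFa differed by 0.83 (adjusted p = 0.0464), lost without any one of CM KO libraries 2 and 3, CM WT libraries 1 and 2, TGFb WT libraries 1, 2 and 3, TNFa KO libraries 1, 2 and 3, TNFa WT libraries 2 and 3 (adjusted p 0.0503 to 0.143), under no filter on low values (adjusted p = 0.0677), under quantile normalization (adjusted p = 0.0602), under equal library totals (adjusted p = 0.0966) and under the replicate number as a block (adjusted p = 0.0503).

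S100a11 was lower in KO with TGFb, at 721, 1034 and 923 in KO libraries, against 1363, 1366 and 1547 in WT libraries (log2 fold change -0.69, SE 0.17, adjusted p = 0.0073), lost without TGFb KO library 1 (adjusted p = 0.0744). The gene has a processed pseudogene, so its count could be split. S100a4, known as fibroblast-specific protein, was at 0 in 9 libraries and reached 14.1 at most.

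Among actin-binding members, Tagln2, a widely expressed transgelin, was lower with TGFb than with TNFa in KO cells (-0.61, adjusted p = 6.06e-06) and in WT cells (-0.64, adjusted p = 5.49e-06), and lower with CM than with TNFa in both (-0.42, adjusted p = 0.00172 in KO and -0.61, adjusted p = 2.03e-05 in WT). Tpm1, a tropomyosin, was lower with CM than with TNFa in KO cells (-0.37, adjusted p = 0.00595), lost without CM KO library 3 (adjusted p = 0.0615), and in WT cells (-0.39, adjusted p = 0.00392). Neither differed between genotypes by the test. Cnn2, calponin 2, had 2.06, 2.81 and 0 in CM KO libraries, against 74.5, 42.9 and 23.0 in CM WT libraries. KO was lower (log2 fold change -4.25, SE 0.86, adjusted p = 0.00112), and KO library 3 was at 0. With a pseudocount of 5 the log2 fold change was -2.87. Tagln, the smooth muscle transgelin, ranged from 14.5 to 89.0 and was called in no comparison.

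Of 27 other genes of the actin cytoskeleton, 1 was higher and 12 were lower in KO in the average over treatments (48.1% in all, against 11.2% higher and 9.53% lower of all genes), with a median of -0.17, against -0.0033 over all genes. Flna, the filamin that crosslinks actin, was lower with each treatment (-0.45 ± 0.097 with CM, -0.74 ± 0.097 with TGFb and -0.46 ± 0.097 with TNFa), and Tln1, the talin that ties integrins to actin, with CM (-0.34, adjusted p = 0.00545) and TGFb (-0.38, adjusted p = 0.00154). Tmsb4x, thymosin beta 4, which binds free actin and is abundant in leukocytes, was the one gene higher (0.95, adjusted p = 9.19e-10). The Kupffer marker sums given above were higher in the same libraries; their part in the value of Tmsb4x was not tested.

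Zeb2, a repressor of E-cadherin, was the one transition factor that differed between genotypes, and it did so with each treatment. It had 1026, 1009.6 and 1077 in CM KO libraries, against 655, 635 and 683 in CM WT libraries. It had 742, 643 and 497 in TGFb KO libraries, against 422, 373 and 496 in TGFb WT libraries. It had 1353, 1588 and 1668 in TNFa KO libraries, against 840.3, 824 and 692 in TNFa WT libraries. No KO library overlapped a WT library of its treatment, although with TGFb the lowest KO and the highest WT value nearly met. KO over WT was 0.66 ± 0.15 with CM (adjusted p = 0.00275), 0.53 ± 0.15 with TGFb (adjusted p = 0.013) and 0.97 ± 0.15 with TNFa (adjusted p = 3.26e-05), the TGFb call being lost without any one of TGFb KO library 1, TGFb WT library 2 (adjusted p 0.0892 to 0.116) and under a fit of only the groups compared (adjusted p = 0.05). TGFb gave the lowest values in both genotypes, and TGFb over TNFa was -1.30 (adjusted p = 3.09e-08) in KO cells and -0.87 (adjusted p = 5.18e-05) in WT cells. Zeb2 is also expressed by macrophages and endothelium, and it has an antisense partner, Zeb2os, whose reads cannot be told apart from its own where strand was not used.

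Zeb1, its paralogue, ranged from 1172 to 1712 and did not pass between genotypes. In KO cells it was higher with TGFb than with TNFa (0.36, adjusted p = 0.012), lost without TGFb KO library 1 (adjusted p = 0.0662) and under equal library totals (adjusted p = 0.474), where the log2 fold change was 0.11. Snai2 had 86.4, 86.0 and 67.8 in TNFa KO libraries, against 44.6, 30.4 and 26.1 in TNFa WT libraries, without overlap (log2 fold change 1.25, SE 0.44, adjusted p = 0.0805). TGFb over TNFa in WT cells was 1.48 (adjusted p = 0.0215), lost without any one of TGFb WT library 3, TNFa WT libraries 2 and 3 (adjusted p 0.0596 to 0.183) and under a fit of only the groups compared (adjusted p = 0.0544). Snai1 was at 0 in 13 libraries and reached 21.5 at most. Cdh2, N-cadherin, which normal hepatocytes carry beside E-cadherin, was lower in KO with TGFb (log2 fold change -0.29, SE 0.094, adjusted p = 0.0428), at 2303, 2669 and 2591 in KO libraries, against 3542, 2791 and 2929 in WT libraries. The call was lost without any one of CM KO libraries 1 and 2, TGFb KO libraries 1 and 3, TGFb WT libraries 1 and 3, TNFa WT libraries 1 and 3 (adjusted p 0.0506 to 0.298), under the replicate number as a block (adjusted p = 0.0592) and under a fit of only the groups compared (adjusted p = 0.0724), and without WT library 1 the log2 fold change was -0.18.

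Of 18 epithelial genes, 3 were higher and 11 lower in KO in the average over treatments (77.8% in all, against 11.2% higher and 9.53% lower of all genes; median -0.22). Cldn2, a tight junction claudin, was lower with each treatment (-0.75 ± 0.14 with CM, -1.08 ± 0.14 with TGFb and -0.92 ± 0.14 with TNFa), as was Cgn, the junction plaque protein cingulin (-0.57 ± 0.11, -0.64 ± 0.11 and -0.64 ± 0.11 in the same order). Gjb1, the main gap junction protein of hepatocytes, was higher in KO with CM (0.57, adjusted p = 0.00117).

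Itgav encodes the alpha chain of integrins that bind fibronectin and vitronectin and activate latent TGF-beta, and it was among the most abundant members. It had 25194, 25986 and 23592 in CM KO libraries, against 31540.0, 30138 and 31063 in CM WT libraries, 21596, 26892 and 23099 in TGFb KO libraries, against 29697, 29688 and 29453 in TGFb WT libraries, and 33422, 34067 and 31376 in TNFa KO libraries, against 41131, 38776 and 41856 in TNFa WT libraries. Each KO library was below each WT library of its treatment. The log2 fold change was -0.31 (adjusted p = 0.0156) with CM, -0.32 (adjusted p = 0.0108) with TGFb and -0.30 (adjusted p = 0.0235) with TNFa, and -0.31 (adjusted p = 1.42e-05) in the average. The CM call was lost without any one of CM KO libraries 1 and 3 (adjusted p 0.05 to 0.09), the TGFb call without TGFb KO library 1 (adjusted p = 0.0846) and the TNFa call without any one of TNFa KO libraries 1 and 3, TNFa WT libraries 1 and 3 (adjusted p 0.0597 to 0.102) and under quantile normalization (adjusted p = 0.22), where the log2 fold change was -0.17. TNFa libraries had more Itgav than those of either other treatment in both genotypes. Itga5, the fibronectin receptor chain, ranged from 537 to 953 and did not pass between genotypes (log2 fold change -0.033 with CM, -0.10 with TGFb and 0.12 with TNFa). Of 11 other integrin and adhesion genes, 2 were higher and 3 lower in KO in the average over treatments (45.5% in all, against 20.7% of all genes, median 0.035), with Itga6, a laminin receptor chain, lower with each treatment (-0.57 with CM, -0.37 with TGFb and -0.35 with TNFa).

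Of the ligands, Tgfb1 had 123, 109.8 and 76.4 in CM KO libraries, against 47.6, 75.4 and 41.7 in CM WT libraries, and 123, 111 and 121 in TNFa KO libraries, against 43.9, 67.0 and 53.9 in TNFa WT libraries. These groups did not overlap, those with TGFb did, and the difference passed in the average over treatments (log2 fold change 0.77, SE 0.23, adjusted p = 0.0148). Tgfb2 differed between treatments. It had 327, 402 and 301 with CM, against 695, 714 and 746 with TNFa in KO cells (log2 fold change -1.07, SE 0.14, adjusted p = 2.27e-06), and 461, 482 and 418 with CM, against 771, 829 and 817 with TNFa in WT cells (log2 fold change -0.83, SE 0.14, adjusted p = 1.38e-04). KO libraries lay below WT libraries with CM and TNFa, but KO and WT were not told apart for Tgfb2 by the test (adjusted p = 0.0754 with CM, 0.845 with TGFb and 0.583 with TNFa).

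Further genes known to respond to TGF-beta, 23 tested, also differed between treatments. This list and the others here were chosen with earlier results of these data known. Their shares beside those of all genes therefore only describe the listed genes. TGFb over TNFa gave 13 higher and 1 lower in KO cells (against 12.3% and 10.1% of all genes, median 0.68) and 12 higher and 2 lower in WT cells (against 8.06% and 5.33%, median 0.74), where the medians over all genes were -0.038 and 0.0041. Pmepa1, a feedback inhibitor of SMAD signalling, gave 2.01 in KO cells and 2.51 in WT cells. CM over TGFb gave 10 lower and none higher in KO cells, against 5.39% and 5.20% of all genes, and 14 lower and 2 higher in WT cells, against 6.09% and 5.76%. Between KO and WT with TGFb, 3 of the 23 were higher and 1 lower (17.4% in all, near the 12.2% of all genes). The lower one was Tgfbr1, the type I receptor (log2 fold change -0.87, SE 0.078, adjusted p = 1.30e-09), and Id3 and Id2, inhibitors of differentiation known as BMP and TGF-beta targets, were among the higher ones (0.94, adjusted p = 9.01e-06 and 0.89, adjusted p = 1.97e-04). The KO effect on Tgfbr1 differed between treatments (F-test, adjusted p = 0.00108).

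The KO effect differed between treatments for 4 of 36 members by an F-test (11.1%), against 1.70% of all genes, and these were Lox (adjusted p = 0.00108), Vim (0.0191), Cnn2 (0.0417) and S100a6 (0.0458). In pairs of treatments, 3 members differed between CM and TNFa (0.630% of all genes), 2 between CM and TGFb (0.491%) and none between TGFb and TNFa (1.10%). In the last pair limma gave 9 members an unadjusted p below 0.05. The share of all genes at that unadjusted threshold was not computed, so nothing is read from the 9. For Lox and S100a6 the KO libraries were below the WT libraries with TGFb and TNFa and overlapped them with CM. For Vim they were below with TGFb, just below with TNFa, and overlapping with CM. The count of 4 became 2 without any one of CM KO libraries 2 and 3, CM WT libraries 1 and 2, TGFb WT library 2, TNFa KO libraries 2 and 3 and TNFa WT libraries 2 and 3, and 1 without TGFb WT library 3.

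The numbers of members called between genotypes also rested on single libraries. With CM, 5 members were called in place of 8 without KO library 3 (3 higher and 2 lower). With TGFb, 4 were called in place of 10 without KO library 1 (0 higher and 4 lower), and with TNFa 5 in place of 9 without KO library 1 or KO library 3 (3 higher and 2 lower each). The calls kept under every alternative and without every library were Ccn1, Mmp13, Zeb2 and Cnn2 with CM, Lox, Vim, S100a6 and Ccn2 with TGFb, and Lox, Mmp13, Ccn1, S100a6 and Zeb2 with TNFa.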

How the data were processed

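RNA-seq of hepatocytes was deposited as one table of normalized counts. Per the submitters' processing notes, STAR 2.7.8a, Partek, DESeq2 and the mouse build mm39 were used; strand use in counting is not stated in the labels. The deposited values are a signal scaled between libraries by the authors, not raw counts, and were 0 or above. Only 72.0% to 77.4% of values up to 200 reads lay within 0.05 reads of a whole number, so reads were not recovered and no count test was run. Depth was estimated from the step that put the most low values near its whole multiples, and covers only the protein-coding genes deposited. More deeply sequenced libraries have less counting error.

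Values were analysed as log2(value + 1) with limma 3.58.1 in R 4.3.3 (trend on mean level). A gene entered when 3 or more libraries had 10 or above (14455 of 16873). The 6 group means were fitted together over 18 libraries with no block (12 residual and 16.95 prior degrees of freedom), and p-values were adjusted by Benjamini-Hochberg over all genes tested. An F-test and contrasts of contrasts tested whether the KO effect differed between treatments. Where nothing says that libraries came from separate mice, p-values measure only the spread between these libraries. The fit was tested on simulated data. Alternatives were pseudocounts of 0.5 and 5, no filter or a mean of at least 50, recomputed size factors, quantile normalization, equal library totals, the replicate number as a block, a fit restricted to the groups being compared and leaving out each library.

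The members and lists were chosen with earlier results of these data known. Every member is reported; of each list, up to 3 called genes with the smallest p per comparison could be named. Of the genes on the lists, 8 were not analysed here. Further listed genes were measured but did not pass the filter on low values and were not tested. Of the markers measured, 12 of 18 stellate, 6 of 9 portal fibroblast, 1 of 7 smooth muscle and 3 of 8 lymphocyte markers were tested. Gene coordinates are mm39; exon lengths are from GENCODE M21 and promoters from RefSeq (GRCm38.p6). Figures were drawn with matplotlib 3.10.9 in Python 3.11.15 (pandas 2.3.3, NumPy 2.4.6).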

Additional observations from a re-analysis of the deposited data

Results flagged for a closer look

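The KO effect differed between treatments, by a test of the difference itself, in 5 results. For Lox the log2 fold change of KO over WT was less negative with CM than with TGFb, by 1.24 (SE 0.189, adjusted p = 0.00143). It was also less negative with CM than with TNFa, by 0.957 (SE 0.189, adjusted p = 0.0134). The second of these was lost without any one of CM KO library 1, TNFa WT library 3 (adjusted p 0.0514 to 0.0568). For Vim, KO was called lower with TGFb and not with CM, and these log2 fold changes differed by 0.914 (SE 0.188, adjusted p = 0.0228). That call was kept without 11 of the 18 libraries in turn. For S100a6, KO was called lower with TNFa and not with CM, and these log2 fold changes differed by 0.83 (SE 0.199, adjusted p = 0.0464). That call was kept under 4 of 8 other settings and without 6 of the 18 libraries in turn. It was lost with the replicate number as a block (adjusted p = 0.0503). For Cnn2, whose CM KO libraries were near 0, the difference of CM minus TNFa was -4.98 (SE 1.21, adjusted p = 0.0491), a call lost without any one of CM KO libraries 1, 2 and 3, CM WT libraries 1 and 2, TGFb WT libraries 1, 2 and 3, TNFa KO libraries 1, 2 and 3, TNFa WT libraries 1, 2 and 3 (adjusted p 0.0554 to 0.147), under a pseudocount of 0.5 (adjusted p = 0.056), under no filter on low values (adjusted p = 0.0779), under equal library totals (adjusted p = 0.0594) and under the replicate number as a block (adjusted p = 0.0618).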

How the results depend on the processing

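Of 126 called results for single members, 102 kept their call under every alternative that tested them, other than a left-out library. Of the 126, 84 kept it without each library as well, and 0 changed direction. Members with a mean under 50 were not tested under the filter at that mean, and differences over all treatments not in a fit of only the groups compared. The counts of members called stayed within 1.5 times under each alternative other than a left-out library, except that with the replicate number as a block the KO effect differed between treatments for 2 members in place of 4. Deviations of same-numbered libraries had correlations between -0.068 and 0.054, and those of differently numbered libraries between -0.063 and 0.056. Whether same-numbered libraries share a mouse or a day cannot be told from these values. Leaving out one library gave 5 to 9 members called between KO and WT with CM, 4 to 11 with TGFb, 5 to 10 with TNFa and 14 to 17 in the average. It gave 14 to 18 between TGFb and TNFa in KO cells and 11 to 17 in WT cells, 9 to 12 between CM and TNFa in KO cells and 7 to 9 in WT cells, and 11 to 15 between CM and TGFb in KO cells and 10 to 13 in WT cells. The KO effect differed between treatments for 1 to 4. For Vim, CM over TNFa in WT cells was -0.44, but -0.21 without CM WT library 1 (adjusted p = 0.293). The cause was not tested. Low values limit the 10 tested members with a mean under 50.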
